A study of Homo sapiens with 8 samples.

Results

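The genes described are 10 antiviral interferon-stimulated genes, ISG15, IFIT1, IFIT2, IFIT3, IFIT5, OAS1, OAS2, OAS3, MX1 and MX2, out of 20033 protein-coding genes. Their H3K4me3 was read from broad-peak lists of U2OS cells, a human osteosarcoma line, and consisted of the peaks within 3 kb of the 5′ end of each gene's MANE Select transcript, the transcript agreed on by the GENCODE and RefSeq annotations. By this rule the members took 9, 8 and 9 of the 22446, 22784 and 24474 peaks of WT replicates 1, 2 and 3, and 9, 8 and 9 of the 26370, 21712 and 21963 peaks of KO replicates 1, 2 and 3. Each library came from 1 clone, labelled WT_3, WT_4 and WT_5 for wild type cells and KO_C3, KO_C5 and KO_E2 for knockouts of ZBTB48, a protein with zinc fingers found at telomeres and at gene promoters. By the sample records, all 8 samples of the series, 2 WT inputs included, had been kept for 24 h in interferon gamma (IFNγ) at 250 U/ml. A figure legend of the study gives a longer time for a panel that includes H3K4me3 ChIP-seq tracks. No untreated library was at hand, so that induction by IFNγ could not be measured. The input libraries were not used here. The question put to the members was whether these promoters, which respond to the same treatment as the MHC class II genes the study is about, carried the same H3K4me3 with and without ZBTB48.

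H3K4me3, the trimethylation of lysine 4 on histone H3, lies around the 5′ ends of active genes. Interferons bind receptors at the cell surface and switch on transcription from short DNA elements named ISRE and GAS, and the resulting gene products interfere with viral replication. ISG15 is a ubiquitin-like protein that is attached to other proteins or secreted. The IFIT proteins bind viral RNA and block its translation. The OAS enzymes sense double-stranded RNA and make short oligoadenylates that act as a signal for RNA decay. MX1 and MX2 are dynamin-like GTPases that trap incoming viral particles and capsids.

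The sequence before the 5′ end is shown for the members whose promoters the results turn on, namely ISG15 and IFIT1 as ISRE-bearing promoters, OAS1 as the member with the shortest peaks over its 5′ end, and IFIT3 and MX1 because the mark lay at more than 1 annotated 5′ end or away from the MANE Select end. They are the 160 bases before each end, 5′ to 3′, from RefSeq on GRCh38.p14. Capitals mark the letters searched as ISRE, which are GAAA, any 2 bases and GAAA, on either strand. For OAS1 and the MANE Select end of MX1, where these letters were absent, capitals mark the shorter IRF letters, AA, any 2 bases and GAAA. Every ISRE match contains these. They too were searched on either strand and were added after the sequences were seen. The last line gives 30 bases that follow the upstream 5′ end of MX1.

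ISG15, chr1:1013337-1013496, plus strand: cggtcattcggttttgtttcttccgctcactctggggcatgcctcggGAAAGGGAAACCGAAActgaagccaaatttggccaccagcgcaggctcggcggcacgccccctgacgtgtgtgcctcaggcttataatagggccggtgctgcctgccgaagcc
IFIT1, chr10:89392463-89392622, plus strand: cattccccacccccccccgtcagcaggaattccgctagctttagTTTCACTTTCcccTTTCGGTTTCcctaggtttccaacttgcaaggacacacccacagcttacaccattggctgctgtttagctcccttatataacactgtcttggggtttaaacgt
IFIT3, MANE Select end, chr10:89327837-89327996, plus strand: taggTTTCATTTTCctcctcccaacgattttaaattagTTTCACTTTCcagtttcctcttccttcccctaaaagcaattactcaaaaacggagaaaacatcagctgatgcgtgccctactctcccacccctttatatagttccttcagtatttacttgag
IFIT3, internal end, chr10:89332369-89332528, plus strand: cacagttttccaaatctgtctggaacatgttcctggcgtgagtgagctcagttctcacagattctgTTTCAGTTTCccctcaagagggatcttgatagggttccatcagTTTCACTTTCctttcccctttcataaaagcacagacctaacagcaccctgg
OAS1, chr12:112906802-112906961, plus strand: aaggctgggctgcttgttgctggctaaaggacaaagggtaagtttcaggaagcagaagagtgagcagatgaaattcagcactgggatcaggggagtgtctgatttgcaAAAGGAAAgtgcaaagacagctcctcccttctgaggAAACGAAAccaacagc
MX1, MANE Select end, chr21:41426079-41426238, plus strand: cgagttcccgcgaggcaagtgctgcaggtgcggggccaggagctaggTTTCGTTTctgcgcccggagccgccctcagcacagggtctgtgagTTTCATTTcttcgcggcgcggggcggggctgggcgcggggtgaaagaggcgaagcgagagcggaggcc
MX1, upstream end, chr21:41420559-41420588, plus strand: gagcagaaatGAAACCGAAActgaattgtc

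Of the 10 members, 7 had a RefSeq promoter window of 300 bases, 250 before and 50 after the 5′ end. ISRE letters were found at the MANE Select end of 5 of these 7, ISG15, IFIT1, IFIT3, IFIT5 and OAS3, and in 3.16% of all 21612 RefSeq promoters. ISG15 held a pair of overlapping matches from base −113 to −98, counted from the 5′ end as 0. In IFIT1 the matches began at −116 and −103, and in IFIT3 at −156 and −122. IFIT5 carried 3 matches close to its 5′ end, beginning at −45, −19 and −4. OAS3 had a match at −143 and another at −12. GAS letters, searched as TTC, any 3 bases and GAA, were found at OAS1 alone of these 7 ends, from −168, and in 6.80% of all promoters. OAS1 and the MANE Select end of MX1 each had 2 matches to the IRF letters, which 19.3% of all promoters held. These matches are letters in a window and not measured binding.

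The 6 lists differed in kind. Peaks were wider in WT replicates 1 and 2, with median widths of 2297 and 2353 bp, than in the other 4 lists, where medians ran from 1275 to 1487 bp. Median fold enrichment, the ratio over local background given by the peak caller, was at least 13.4 in WT replicates 1 and 2 and between 4.19 and 4.65 in the rest. Over promoters called in all 6 lists, the median length under peaks within 3 kb was 3363 and 3290 bp in WT replicates 1 and 2 and 1685 to 2001 bp in the rest. For this reason values are repeated below with WT replicate 3 as the only WT library. WT replicates 1 and 2 are also the only libraries with an input of the same genotype and number in the series. Whether this bears on the difference in kind was not tested. The lists hold no read counts, so depth is unknown here, and a missing peak means no call at an unknown depth. ZBTB48 itself, the targeted gene, had a peak over its 5′ end in all 6 libraries, so the mark gives no check of the knockout. Its groups overlapped, as did those of the constitutive genes ACTB and GAPDH, whose WT means exceeded the KO means by 980 and 1392 bp. Of markers for the cell type, the mesenchymal genes RUNX2, SPARC and VIM had peaks in all 6 libraries while TWIST1, COL1A2 and ALPL had none, 0 of 5 leukocyte markers were marked in any library, and EPCAM and KRT8 of 3 epithelial markers were marked.

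Of the 10 members, 8 had an H3K4me3 peak within 1 kb of the 5′ end in all 6 libraries, and in each of them the peak lay over the 5′ end itself. Among all protein-coding promoters 65.1% were called within 1 kb in all 6 libraries and 61.3% over the 5′ end. MX2 was called in 4 of 6 libraries and MX1 in none, as were 30.3% of all promoters. Per library, 9, 8 and 9 members were called in WT and 9, 8 and 9 in KO, against 67.6, 67.4 and 67.5% of all promoters in WT and 67.8, 66.4 and 66.5% in KO. No member was therefore called in all libraries of 1 genotype and missing from those of the other. What varied between libraries was the length under peaks within 3 kb of the 5′ end, called covered length from here on and shown in the plot of covered length by library. All 3 WT values exceeded all 3 KO values at 6 of the 10 members, ISG15, IFIT1, IFIT2, IFIT3, IFIT5 and OAS2, and at 50.8% of the 14422 promoters with any coverage. The reverse order was found at 0 members and at 0.111% of promoters.

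**Figure D1:**
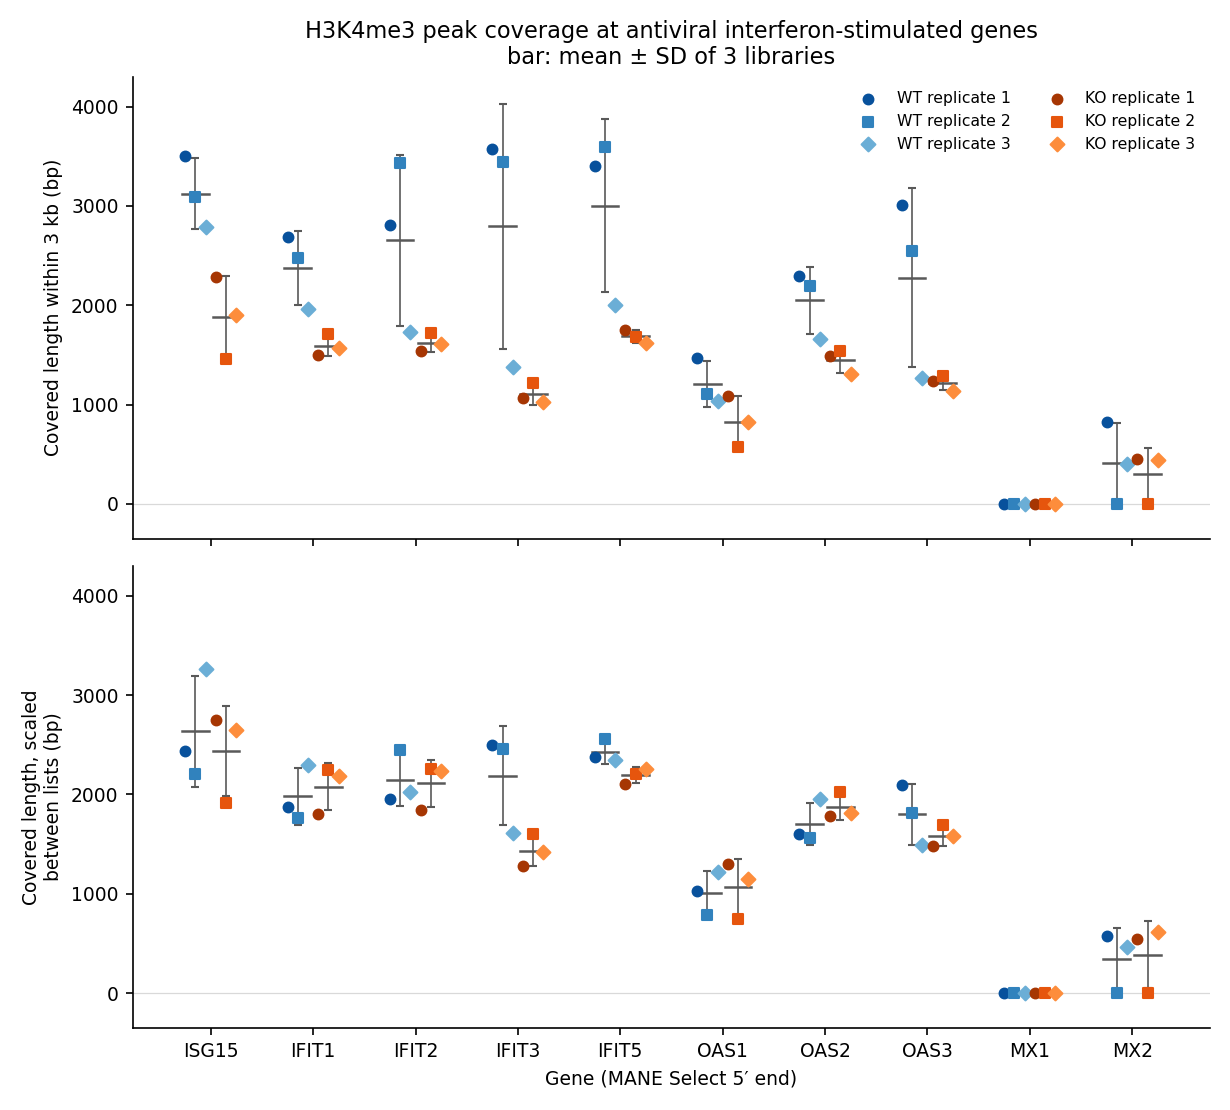
Covered length in bp within 3 kb of the MANE Select 5′ end (y axis) for the 10 members (x axis), as deposited (upper plot) and after scaling each list by its median over promoters called in all 6 lists (lower plot). Points are the 3 WT (blue) and 3 KO (orange) libraries, and bars give the mean ± SD of 3. In the upper plot 6 members have all WT points above all KO points, while in the lower plot this holds for IFIT3 and IFIT5, as for 5.53% of promoters.

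ISG15 (ENSG00000187608, chr1, plus strand, 5′ end at 1013497) had the longest mean covered length of the members in both genotypes. Per library it was 3498, 3089 and 2783 bp in WT replicates 1, 2 and 3, and 2288, 1459 and 1906 bp in KO replicates 1, 2 and 3. All WT values lay above all KO values, with means of 3123 ± 359 (SD, n = 3) and 1884 ± 415 bp (SD, n = 3) and a difference of 1239 bp (two-sided exact permutation p = 0.1, adjusted p = 0.196 over all covered promoters). With 3 libraries a side, 0.1 is the smallest p this test can give, and 0 of the 14422 covered promoters had an adjusted p under 0.05. WT replicate 3 exceeded the highest KO library by 495 bp, a lead larger than at 94.4% of promoters. The gene is short, and its peak ran past the end of its last exon at 1014540 in 5 libraries, while in KO replicate 2 it stopped at 1014524. The 5′ end of a long non-coding gene on the opposite strand, ENSG00000224969, lay under the same peak in all but KO replicate 3, and peaks of a histone mark carry no strand.

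The IFIT genes lie together on chromosome 10 in the order IFIT2, IFIT3, IFIT1 and IFIT5. Each of the 4 had a peak over its 5′ end in every library and a longer covered length in every WT library than in any KO library. Of all promoters 61.3% had a peak over the 5′ end in all 6 libraries. WT lay above KO without overlap at 50.8% of covered promoters. After scaling between lists, IFIT3 and IFIT5 kept this order and the groups of IFIT1 and IFIT2 overlapped. IFIT1 (ENSG00000185745, 5′ end at 89392623), which recognizes the cap of foreign RNA, had 2683, 2478 and 1962 bp in WT and 1503, 1706 and 1573 bp in KO, replicates 1 to 3 in order. WT replicate 3 was 256 bp above the highest KO library. The WT mean of 2374 ± 372 bp and the KO mean of 1594 ± 103 bp (SD, n = 3 each) differed by 780 bp (exact permutation p = 0.1).

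IFIT2 (ENSG00000119922, 5′ end at 89302046), a partner of IFIT1 and IFIT3, had 2806, 3432 and 1730 bp in WT and 1534, 1717 and 1606 bp in KO. Its groups were separated by 13 bp, and the difference of 1037 bp between means of 2656 ± 861 and 1619 ± 92.2 bp (SD, n = 3 each) rested on WT replicates 1 and 2. For IFIT5 (ENSG00000152778, 5′ end at 89414568), the covered length was 3407, 3593 and 2000 bp in WT against 1752, 1681 and 1624 bp in KO. The KO libraries of IFIT5 lay within an SD of 64.1 bp (n = 3), and WT replicate 3 led the highest of them by 248 bp. The peak at IFIT5 was shared with the 5′ end of a LIPA transcript on the opposite strand in every library. LIPA encodes lysosomal acid lipase, and its MANE Select end lies elsewhere.

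IFIT3 (ENSG00000119917, 5′ end at 89327997), which stabilizes IFIT1 on RNA, had the largest difference among the members. In WT replicates 1, 2 and 3 its covered length was 3575, 3441 and 1375 bp, and in KO replicates 1, 2 and 3 it was 1068, 1218 and 1021 bp. The WT replicate 2 value came from a peak of 9022 bp that also ran over an internal 5′ end, described below. Its downstream part filled the window to 3000 bp. The KO mean was 0.394 of the WT mean, a ratio lower than at all but 3.41% of promoters with coverage in WT. WT replicate 3, however, was closer to the KO libraries, with a lead of 157 bp, than to WT replicates 1 and 2. Within each list the fold enrichment of the IFIT3 peak ranked between the 3.50th and 40.1st percentile of all peaks, and its median over the 6 lists, 17.0, was the lowest of the 8 members marked throughout. In WT replicates 1 and 2, OAS1 and OAS2 ranked lower than IFIT3.

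**Figure D2:**
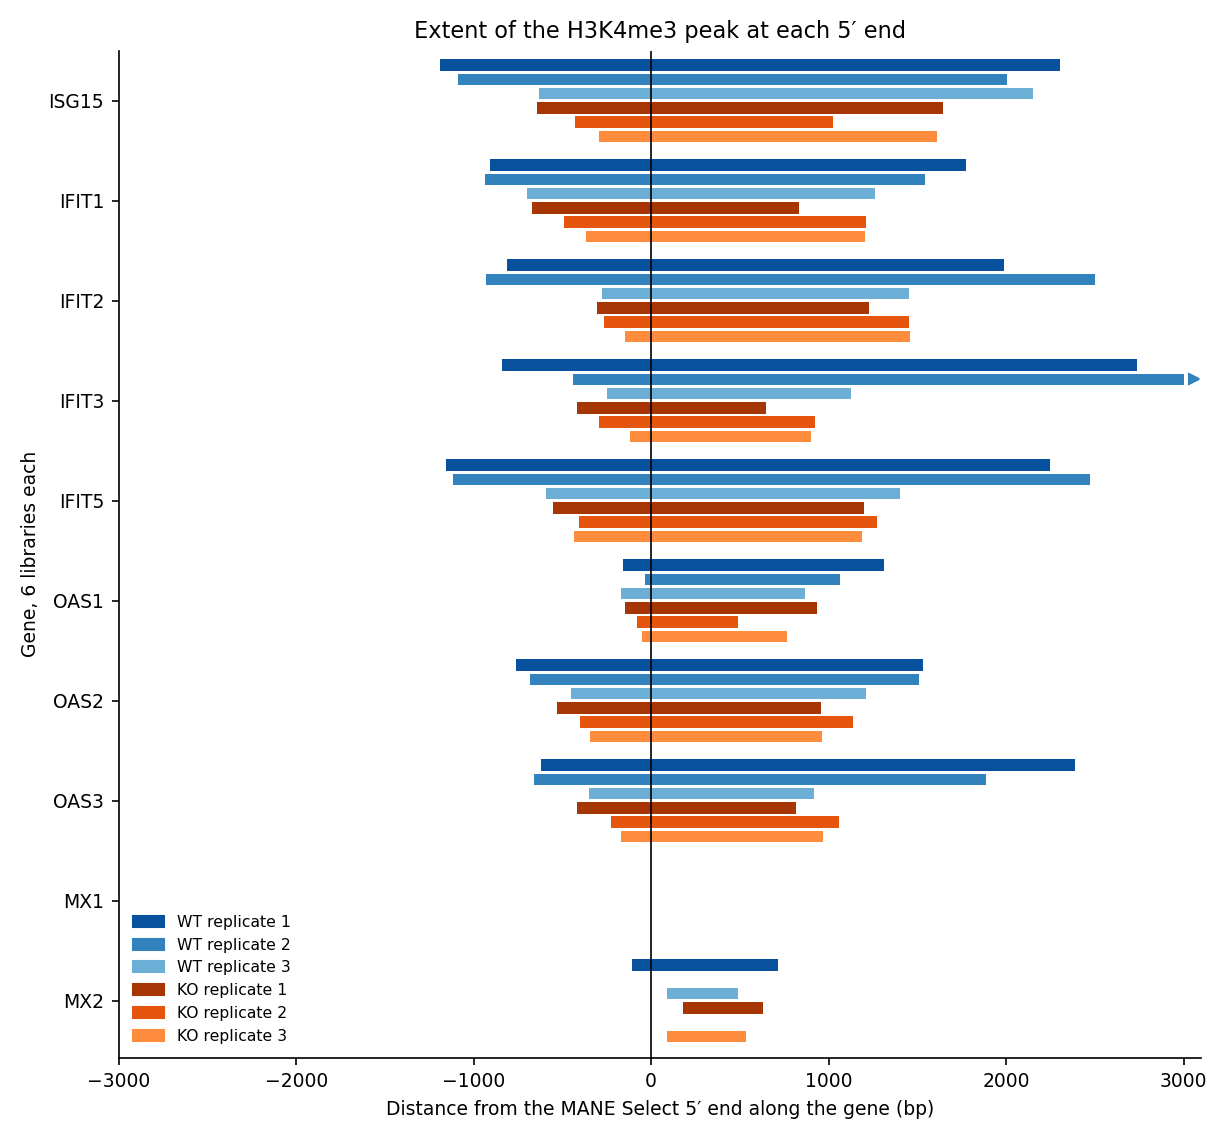
Extent of the peak at the 5′ end of each member in each library, as distance in bp from the MANE Select 5′ end (x axis, positive into the gene), with WT libraries in blue and KO libraries in orange. The bars reach farther into the gene than upstream, the OAS1 peaks begin no more than 172 bp before the 5′ end, MX1 has no bar, and the arrow marks the IFIT3 peak of WT replicate 2 that runs on to 8581 bp.

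Of the OAS genes, which stand together on chromosome 12 in the order OAS1, OAS3 and OAS2, only OAS2 had groups that did not overlap. OAS2 (ENSG00000111335, 5′ end at 112978519) had 2293, 2189 and 1663 bp in WT and 1488, 1539 and 1305 bp in KO (exact permutation p = 0.1). The lead of WT replicate 3 there was 124 bp. OAS3 (ENSG00000111331, 5′ end at 112938474), the form that senses long double-stranded RNA, had 3009, 2550 and 1269 bp in WT and 1232, 1286 and 1138 bp in KO. Here WT replicate 3 fell within the range of the KO libraries, so that the difference of 1057 bp (exact permutation p = 0.2) came from the other 2 WT libraries.

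OAS1 (ENSG00000089127, 5′ end at 112906962) had the shortest coverage of the 8 members marked throughout. It was 1468, 1102 and 1040 bp in WT and 1083, 571 and 822 bp in KO, with means of 1203 ± 231 and 825 ± 256 bp (SD, n = 3 each). The groups overlapped (exact permutation p = 0.2), and KO replicate 1 lay above WT replicate 3 by 43 bp. The OAS1 peak began between 36 and 172 bp before the 5′ end and ran 488 to 1309 bp into the gene, so that 89.3% of its covered bases lay downstream, a share above that of 99.3% of promoters. Between the outermost windows of the 3 genes every library had 3 peaks, and each of these lay at a member's 5′ end.

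For the 8 members with a peak over the 5′ end in all libraries, the median share of covered bases downstream of the 5′ end was 74.0%, against 62.0% over the 12288 promoters that met the same condition. The lowest member was IFIT1 at 65.7%, still above the median promoter. At each of these members but ISG15 the peak ended inside intron 1 in every library. At ISG15 the upstream part was 970 ± 297 bp in WT against 456 ± 178 bp in KO, and the downstream part was 2152 ± 152 against 1427 ± 347 bp (SD, n = 3 each). In OAS1 the upstream part was 122 ± 74.8 bp in WT and 93.3 ± 47.0 bp in KO (SD, n = 3 each), a difference below the spread of the libraries.

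MX1 (ENSG00000157601, chr21, plus strand) had no peak within 3 kb of its MANE Select 5′ end at 41426239 in any library. In all 6 libraries a peak lay 5681 bp farther upstream, over another RefSeq 5′ end at 41420558, where the first exons of other annotated MX1 transcripts begin. Within 3 kb of that end the covered length was 1676, 1147 and 1108 bp in WT replicates 1, 2 and 3. It was 1124, 995 and 1056 bp in KO replicates 1, 2 and 3, which overlapped with WT (difference of 252 bp, exact permutation p = 0.2). The peaks began between −6951 and −6295 bp and stopped between −5379 and −5276 bp, counted from the MANE Select end, so that their downstream edges lay closer together than their upstream edges. A further RefSeq end of MX1 at 41432050, 5811 bp downstream of the MANE Select end, had no peak within 3 kb. The marked upstream end held 1 ISRE match from base +11 to +20, and the unmarked MANE Select end held none. The unmarked end at 41432050 also held 1 ISRE match, from −196, and a GAS match. Counting any annotated 5′ end of a gene, 9 of the 10 members were called in all 6 libraries, against 68.1% of genes.

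MX2 (ENSG00000183486, 5′ end at 41362027) had the shortest coverage of the members that had any. Its covered length was 823, 0 and 399 bp in WT replicates 1, 2 and 3 and 453, 0 and 444 bp in KO replicates 1, 2 and 3. Both genotypes thus had a library without a call (exact permutation p = 1). WT replicate 1 alone had its peak over the 5′ end, and in WT replicate 3 and KO replicates 1 and 3 the peak began 91 to 178 bp inside the gene. The −log10 q of these peaks was between 2.89 and 6.96.

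IFIT3 had a peak at an internal 5′ end as well. RefSeq gives a further start at 89332529, 4532 bp downstream of the MANE Select end and inside intron 1 of the MANE Select transcript. A peak lay over it in all 6 libraries. In 5 libraries it was separate from the peak at the MANE Select end, and in WT replicate 2 a peak of 9022 bp ran over both. Within 3 kb of the internal end the covered length was 4799, 6001 and 1891 bp in WT and 1830, 1680 and 1942 bp in KO, where WT replicates 1 and 2 include parts of the peak at the MANE Select end that reach into this window. WT replicate 3 was 51 bp below the highest KO library, so the groups overlapped (exact permutation p = 0.2). The internal promoter has ISRE matches from −94 and −51, in the sequence printed for it above.

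**Figure D3:**
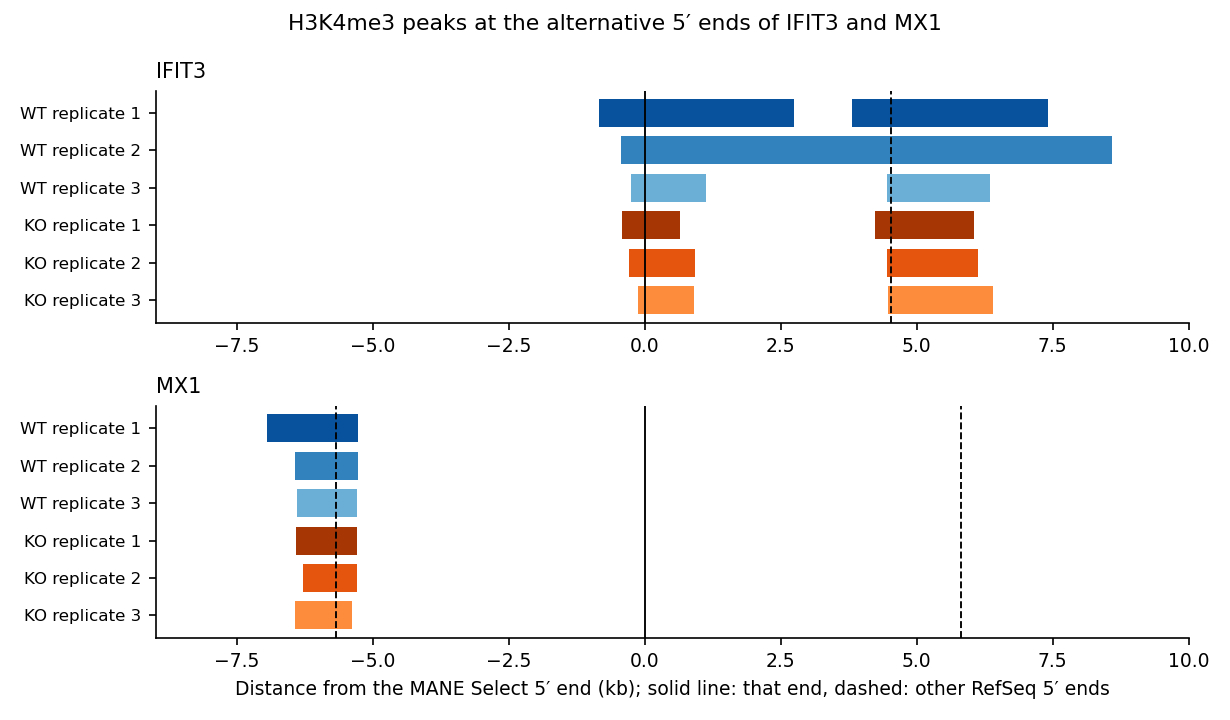
H3K4me3 peaks of the 6 libraries (rows, WT in blue and KO in orange) at IFIT3 and MX1 by distance in kb from the MANE Select 5′ end (solid line), with other RefSeq 5′ ends as dashed lines. IFIT3 is marked at both of its ends in every library, and MX1 only at the end 5681 bp upstream.

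The members' promoters differed widely in CpG content. Over all RefSeq promoters, 21.5% of the 7399 with 0 to 12 CpG in the 300-base window were called in all 6 libraries, 82.1% of those with 13 to 28 and 91.1% of those with 29 to 69. IFIT1, with 4 CpG, IFIT3, with 5, and OAS1, with 1, fell into the class of fewest CpG and were called in all 6. So were ISG15 and OAS3, with 20 CpG each, and IFIT5, with 16, in the middle class. The internal end of IFIT3, with 1 CpG, was called in all 6 as well. The MANE Select end of MX1 held 30 CpG, in the class of most CpG, and was called in none, whereas its marked upstream end held 20. In the class of fewest CpG, promoters with ISRE letters were called in 28.2% of 400 cases and those without in 21.2%. Over all promoters the order was the other way, with 53.0% of 683 called among those with ISRE letters and 64.5% among those without. No test was made of either comparison.

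The members' genotype differences were then set against those of all promoters. The median difference between WT and KO means was 909 bp over the 10 members and 1037 bp over the 9 with coverage, against 965 bp over all covered promoters. The median KO to WT ratio was 0.610 for the members and 0.650 for all promoters. Every member with an exact permutation p of 0.1 had an adjusted p of 0.196, and those with 0.2 had 0.245. After each list was scaled by its median over promoters called in all 6 lists, 2 members, IFIT3 and IFIT5, had WT above KO without overlap, as did 5.53% of promoters, while 12.9% had KO above WT and 0 members did. The scaled IFIT3 values of WT replicate 3 and KO replicate 2 were 1612 and 1601 bp, so that this separation is narrow.

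**Figure D4:**
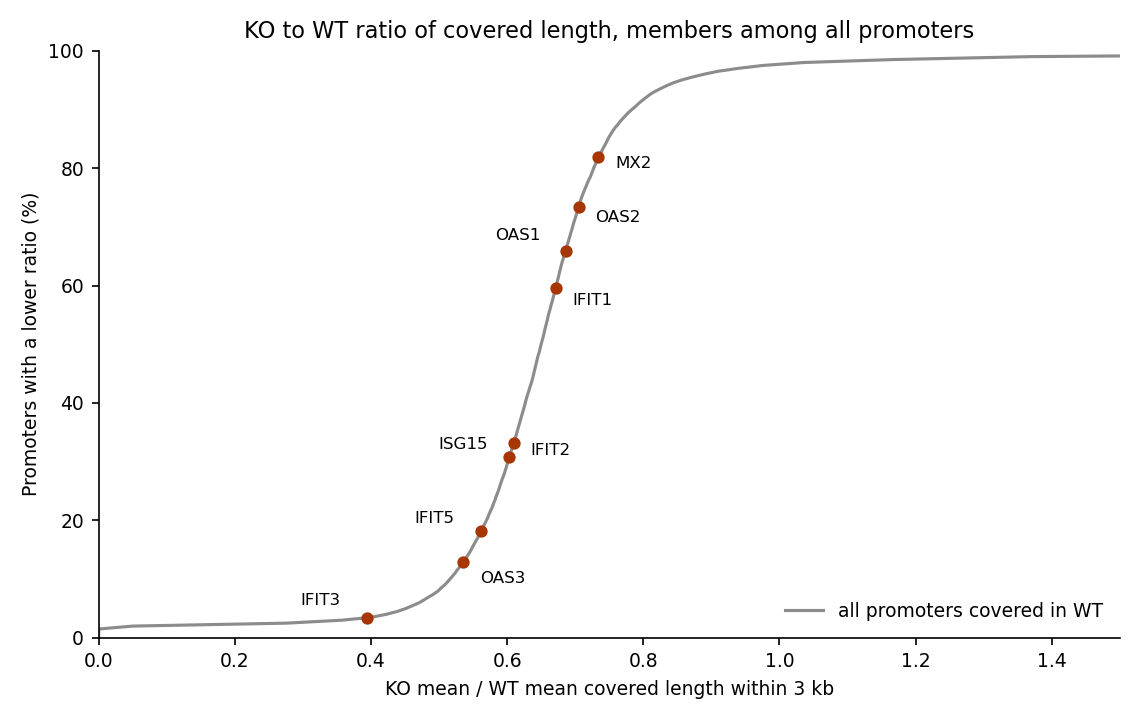
KO mean divided by WT mean of the covered length within 3 kb (x axis) and the percent of promoters with a lower ratio (y axis), for all promoters covered in WT (line, cut at a ratio of 1.5) and for the 9 members with coverage (points). The members run from IFIT3 at 0.394 to MX2 at 0.734 and lie on both sides of the median promoter.

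In the comparison within lists of like kind, WT replicate 3 exceeded all 3 KO libraries at 6 of the 10 members and at 54.4% of promoters covered in these 4 lists. A lead of at least 200 bp was found at ISG15, IFIT1 and IFIT5, that is at 3 members, and at 15.4% of promoters. The lead was negative at OAS1, OAS3 and MX2, at −43, −17 and −54 bp. This comparison has a single WT library and carries no test. WT replicate 3 also had the longest median covered length of these 4 lists over promoters called in all 6 lists. It was 2001 bp, against 1954, 1785 and 1685 bp in KO replicates 1, 2 and 3.

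Within a list, the rank of a peak divided the lists by kind at several members, named here after their values were seen. In all 3 OAS genes and at the upstream MX1 end, WT replicates 1 and 2 ranked below the other 4 libraries, and at IFIT3 and IFIT5 they ranked above them. At OAS3 the fold enrichment ranked at the 51.6th and 44.9th percentile of WT replicates 1 and 2 and at the 85.1st percentile of WT replicate 3, next to 89.6, 90.3 and 84.2 in KO replicates 1, 2 and 3. The upstream MX1 peak behaved likewise, at 38.5 and 42.0 in WT replicates 1 and 2, 96.9 in WT replicate 3 and 95.6, 85.1 and 70.6 in KO. IFIT5 showed the opposite order, at 90.0 and 94.5 in WT replicates 1 and 2 and 48.2 in WT replicate 3, with 58.6, 60.1 and 58.3 in KO. At OAS3, MX1 and IFIT5 the rank in WT replicate 3 lay closer to the KO libraries than to the other WT libraries.

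Other genes of the antiviral and interferon pathway were taken as 4 lists with 32 genes, of which 31 had coverage and 26 were called within 1 kb in all 6 libraries, beside 65.1% of all promoters. WT lay above KO without overlap at 18 of them, 58.1% of those with coverage, and KO above WT at 0, beside 50.8% and 0.111% of covered promoters. Their median difference was 901 bp, against 965 bp over all covered promoters. Among 5 genes listed under ISG15 conjugation, UBA7, UBE2L6, HERC6 and USP18 had WT above KO, at HERC6 with a lead of WT replicate 3 of 14 bp. The ligase gene HERC5 had no peak within 3 kb in any library. Among genes of double-stranded RNA defence, EIF2AK2, which encodes the kinase PKR, and OASL, an OAS relative without the enzyme activity, had groups that did not overlap, while those of ADAR and ZC3HAV1 overlapped. STAT2, a transcription factor of the interferon response, and IFNAR1 and IFNAR2, the type I interferon receptor chains, had WT above KO. At IRF9, which encodes a DNA-binding partner of STAT2, WT replicate 3 lay 39 bp below the highest KO library. The remaining 17 genes are other antiviral effectors, of which 12 were called throughout and 8 had WT above KO.

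Of 9 genes that flank the members, 3 were called within 1 kb in all 6 libraries, AGRN, LIPA and DTX1, beside 65.1% of all promoters. DTX1 had WT above KO without overlap, as did 50.8% of covered promoters. HES4 was called in 1 library and FAM3B in 5, and 4 genes had no coverage in any library, namely IFIT1B, CH25H, RPH3A and TMPRSS2. IFIT1B, an IFIT relative that lies within the cluster between IFIT3 and IFIT1, is thus without a called peak beside 4 members with one in every library. Of all promoters 30.3% had no peak within 1 kb in any library.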

How the data were processed

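H3K4me3 ChIP-seq was performed on 3 WT and 3 ZBTB48 KO clones of U2OS cells treated with IFNγ, and groups follow the genotype stated in each label. Per the study's methods and the submitters' processing notes, the authors used Trimmomatic for trimming and Bowtie2 2.3.5.1 for alignment to GRCh38, dropped duplicates and reads mapping to several places, and called peaks per library in broad mode with MACS2 2.1.1.2. The sources used here do not state which lists were called against an input. By their labels the 2 inputs are WT replicates 1 and 2, the numbers of the lists with wider peaks and higher fold enrichment. The series holds no input labelled for WT replicate 3 or for the KO clones. Whether the use of inputs accounts for the difference between the lists was not tested. The deposited score is the peak caller's display value and was not used. The deposited fold enrichment is a ratio over local background averaged over the peak, as are the −log10 values of p and q that the authors deposited. These values were used to rank or filter peaks within a list. The lists hold no counts, so depth is unknown, no counting interval was computed, and the authors' test on reads with DiffBind 3.2.1 could not be repeated.

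Positions are 1-based on GRCh38. 5′ ends came from GENCODE release 44, and promoter sequences and further 5′ ends from RefSeq GRCh38.p14. A call at a promoter needed a peak overlapping by at least 1 bp the bases up to 1 kb on either side of the 5′ end, and covered length was counted within 3 kb. Genotypes were compared with a two-sided exact permutation test over 20 assignments of the 6 libraries, adjusted by the Benjamini-Hochberg method over all covered promoters. Members share loci and are not replicates. The genes named were the 10 members, ZBTB48, 2 control genes, fixed lists of pathway, flanking and marker genes, and genes nearest to a peak within the members' loci. Of the pathway lists, 2 genes are not reported here singly and are part of the counts. Members and lists were chosen with earlier results of these data known. Alternatives covered peak thresholds, windows, 5′ ends, gaps, scaling, library choice and the replicate number as a block. The steps were tested on simulated lists and run with numpy 2.4.6 and scipy 1.17.1 under Python 3.11.15, with matplotlib 3.10.9 for the figures.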

Additional observations from a re-analysis of the deposited data

How the results depend on the processing

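When only peaks with a fold enrichment of 4 or more were kept, 4 members were called within 1 kb in all 6 libraries and 4 over the 5′ end. With this cut 3 members had WT above KO without overlap, and the MX2 difference turned to −151 bp. The cut falls unequally on the lists. Median fold enrichment was 4.19 to 4.65 in WT replicate 3 and the KO lists and at least 13.4 in WT replicates 1 and 2. Counting coverage within 1 kb in place of 3 kb lowered the median difference to 356 bp and the members with WT above KO without overlap to 4. ISG15, IFIT2 and OAS2 then overlapped (exact permutation p = 0.2) and OAS3 no longer did. For the counts under the fold enrichment cut and the 1 kb window, no share of all promoters was computed. Scaling between lists left 2 members with WT above KO, a median difference of 16.4 bp, and negative differences of −99.3 bp at IFIT1, −55.3 bp at OAS1, −172 bp at OAS2 and −40.1 bp at MX2. With WT replicate 3 as the only WT library the median difference was 217 bp. The cause of these changes was not tested, other than that a window of 1 kb holds fewer bases. The 160 single-gene values under alternatives kept their direction in 137 cases and stayed at 0 in 15 (MX1). They turned in 7 cases and left 0 in 1, MX1 at the 5′ end of any transcript (252 bp). Among the 160 are the values with the replicate number as a block, which equal the main ones by arithmetic.

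Leaving out each library in turn kept 8 members called, gave 6 to 8 members with WT above KO and a median difference of 658 to 1198 bp, and moved MX2 between −99.5 and 312 bp, with the sign turned without WT replicate 1 and, at −41.2 bp, without KO replicate 2. Deviations of same-numbered libraries correlated with r of −0.00952, 0.0171 and 0.0932 across promoters, which are not independent. Those of different-numbered libraries ran from −0.118 to 0.0787. With 3 libraries a side these values cannot settle whether the replicate numbers mark a pairing. With the replicate number as a block, all 3 same-numbered differences were positive at 8 of 10 members, and the smallest p possible was 0.25. The median of 909 bp is the same as without the block by arithmetic, since both groups hold 3 libraries. No share of all promoters was computed for this count or for those on leaving out a library. Every p reported is bounded by 3 libraries a side, and the lists do not say how many reads lie behind a call.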

Other observations

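Among the 17 other antiviral effector genes, RSAD2, which encodes the viral polymerase inhibitor viperin, had a covered length of 794, 2149 and 1983 bp in WT replicates 1, 2 and 3 and 809, 625 and 790 bp in KO replicates 1, 2 and 3. Here WT replicate 1 lay among the KO libraries while WT replicate 3 led the highest of them by 1174 bp, a lead larger than at 99.2% of promoters (exact permutation p = 0.2). IFITM1, a membrane protein that hinders viral entry, had 3457, 4792 and 2435 bp in WT and 869, 1146 and 1564 bp in KO, with a lead of WT replicate 3 of 871 bp (exact permutation p = 0.1). WT replicate 3 exceeded all KO libraries at 11 of the 17 genes, beside 54.4% of promoters covered in WT replicate 3 or a KO library. The leads at both ends of this list were large, with 652 bp at IFI44L on one side and −2199 bp at IFITM2, −1441 bp at XAF1, −1049 bp at IFITM3 and −449 bp at BST2 on the other. IFITM2 had 2909, 3020 and 0 bp in WT and 2190, 2199 and 2155 bp in KO, replicates 1 to 3 in order. Its KO mean exceeded its WT mean only through the missing call in WT replicate 3. WT replicates 1 and 2 lay above every KO library. IFITM2, IFITM3, IFI27, IFI35 and XAF1 were each missing a call within 1 kb in at least 1 library. These 5 genes account for all of the 17 that were not called throughout.

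Between IFIT3 and IFIT1, away from the members' windows, WT replicates 2 and 3 each had a weak peak that began at 89351185 and 89351947 on chromosome 10, with −log10 q of 1.51 and 1.45. The nearest annotated 5′ end, of LIPA, was 8481 and 9243 bp away. The other 4 libraries had no call there. WT replicate 1 had a similar weak peak inside MX2 at 41366882 on chromosome 21, with −log10 q of 1.44.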
